A study of Sus scrofa with 11 samples.

Results

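The basement membrane genes described here were 30 of the 30376 genes in the deposited values, chosen by their symbols: 10 laminin chain genes, the 6 type IV collagen genes, 4 genes of other collagens (COL7A1, COL15A1, COL17A1 and COL18A1), the linkers NID1 and NID2, the proteoglycans HSPG2 and AGRN, the anchorage genes DST, PLEC and CD151, and FREM1, FREM2 and FRAS1. They lie on 13 chromosomes of the pig genome build Sscrofa11.1. Each symbol matched 1 gene, and the start and end of all 30 were those of the NCBI annotation. Polyadenylated RNA was measured in 11 full-thickness skin wounds of Yucatan minipigs on day 10, with 1 library per wound. The diabetic group (n = 7) came from 1 female minipig, 6 months old when streptozotocin (STZ), a toxin of insulin-producing cells, was infused. It received insulin until a week before wounding. The non-diabetic group (n = 4) came from 1 female minipig that underwent identical surgery, whose age is not given in the sources used here. All wounds were made on the back with a 2 cm biopsy punch and collected the same way. The error in every value below is therefore a spread among wounds on 1 animal, and diabetes and the individual animal cannot be told apart.

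A basement membrane is a thin sheet of matrix under epithelia and around blood vessels, muscle fibres, fat cells and nerves. Laminins, trimers of an alpha, a beta and a gamma chain, form 1 network bound to cell receptors, type IV collagen forms another, and nidogens and perlecan connect them. Below the epidermis, collagen XVII, BP230 and plectin tie the basal keratinocyte to laminin-332, and collagen VII anchors the sheet to the dermis. In a healing wound this junction is rebuilt under the migrating epidermis while the capillaries of the granulation tissue lay down their own.

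Values are fragments per base of gene, scaled for library size (FPKM), so levels of different genes may be set side by side. Depth was 28314785 to 40168372 reads on genes per library. The groups were compared on log2(FPKM + 0.5) with limma over the 13956 genes with at least 0.5 FPKM in at least 4 libraries, and a gene was called at an adjusted p (Benjamini-Hochberg, over all of these genes) under 0.05 with an absolute log2 fold change over 0.5. Log2 fold changes and their standard errors (SE) are on this scale, positive where diabetic wounds were higher. Before the comparison, 3 wounds stood apart by their markers. Diabetic replicate 4 and non-diabetic replicate 1 held little epidermis, and diabetic replicate 3 held skeletal muscle, with values given further on. The filter kept 25 of the 30 members. COL4A3, COL4A4, FREM1, FREM2 and FRAS1 were under it.

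A few chains of the basement membrane differed between the groups, and most members were not called. LAMA5, an epithelial and vascular laminin chain, was higher in diabetic wounds, and LAMA1, an embryonic chain, and COL15A1, a collagen of vessel and nerve sheaths, were lower. These were 3 of the 25 tested (12%), where 3.00% of all genes tested were called (1.35% higher and 1.66% lower). LAMA1 passed the filter through its non-diabetic wounds alone, where it was high, so its call says little beside those shares. Without it 2 of 24 were called (8.33%). The groups did not overlap in LAMA1, LAMA5 and CD151, or in 2 of the 24 without LAMA1 (8.33%), where 5.65% of all genes tested did not. The median log2 fold change of the 25 was -0.02, with 11 positive and 14 negative, against 0.01 for all genes tested. With the 2 wounds poor in epidermis and the 1 wound that held skeletal muscle left out together, LAMA5 and COL15A1 were not called.

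**Figure D1:**
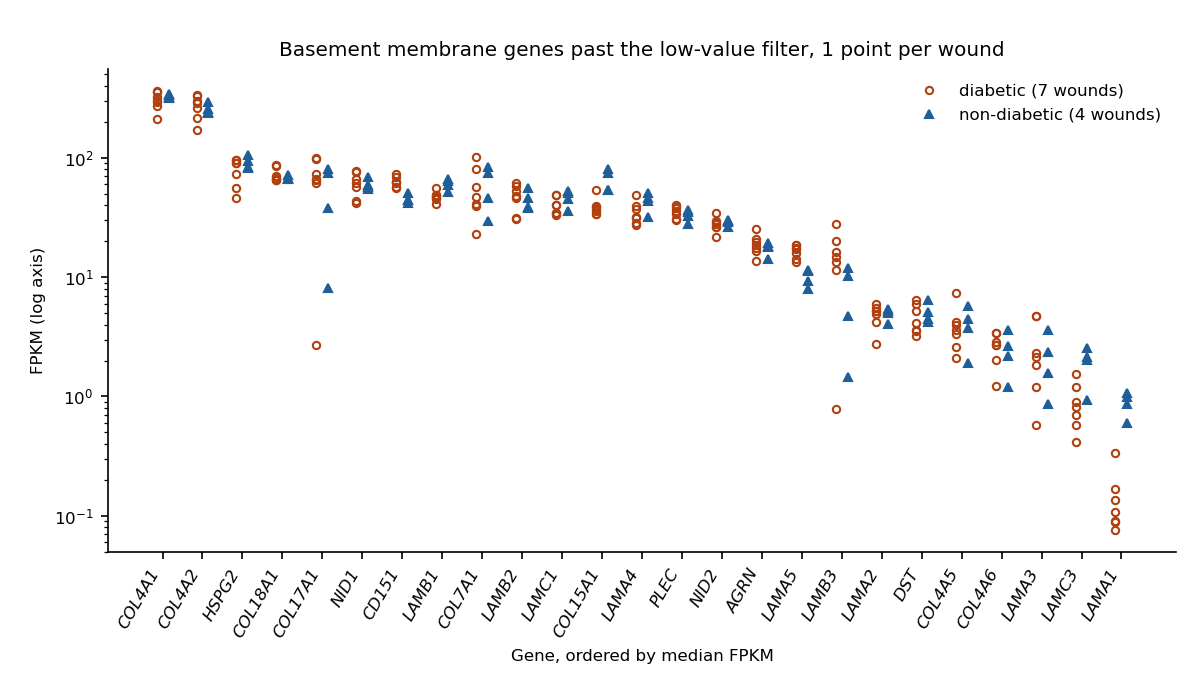
FPKM of the 25 basement membrane genes past the filter on low values, on a log axis and ordered by median, with 1 point per wound (open circles diabetic, n = 7; triangles non-diabetic, n = 4). COL4A1 and COL4A2 stand at the top between 172 and 364 FPKM, the low outlying points are COL17A1 and LAMB3 in the wounds poor in epidermis, and LAMA1 at the right shows diabetic wounds below all non-diabetic ones.

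Among the alpha chains, which decide what cells a laminin binds, LAMA4, the chain of endothelial and other mesenchymal basement membranes, was the most abundant. It took 51.0 to 69.8% of the summed FPKM of LAMA1 to LAMA5 in diabetic wounds and 63.3 to 75.5% in non-diabetic wounds. LAMA5 came next, with 19.3 to 34.9% and 13.6 to 22.0%. LAMA2, the chain of muscle and nerve, took 3.98 to 9.91% and 7.48 to 9.25%, and LAMA3, the chain of laminin-332 in the epidermal junction, 0.946 to 7.43% and 1.48 to 5.41%. LAMA1 took at most 0.523% in a diabetic and at least 0.896% in a non-diabetic wound, so the groups did not overlap in its share.

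LAMA5 (NCBI gene 110257482, chromosome 17 from 61698370 to 61747795, minus strand) had 13.4, 17.4, 17.3, 14.2, 16.05, 18.6 and 18.5 FPKM in diabetic replicates 1 to 7, and 7.95, 11.2, 11.6 and 9.25 FPKM in non-diabetic replicates 1 to 4. The lowest diabetic wound stood above the highest non-diabetic wound. The means were 16.5 ± 2.05 (SD, n = 7) and 9.98 ± 1.69 FPKM (SD, n = 4), a log2 fold change of 0.70 (SE 0.13, 95% interval 0.43 to 0.98, adjusted p = 0.0126, limma; p = 0.00303, two-sided exact permutation test, the smallest that the 330 splits of the wounds can give). Within the libraries whose names start with L the difference in mean log2 level was 0.73, and within those that start with R it was 0.67. With the mean log2 level of the keratinocyte markers as a covariate it was still called, at 0.67 on the log2 scale (adjusted p = 0.00648). With the muscle-holding wound and both epidermis-poor wounds left out, the value was 0.63 and the call was lost (adjusted p = 0.0889).

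LAMA1 (NCBI gene 100625589, chromosome 6 from 100332843 to 100468457, plus strand) had 0.108, 0.335, 0.0905, 0.0758, 0.135, 0.167 and 0.0893 FPKM in diabetic replicates 1 to 7, and 0.995, 1.07, 0.863 and 0.599 FPKM in non-diabetic replicates 1 to 4. The highest diabetic value stood under the lowest non-diabetic one, and diabetic replicate 2 was the highest of its group. The mean was 6.17 times higher in non-diabetic wounds (0.882 ± 0.208 against 0.143 ± 0.0903 FPKM, SD). The log2 fold change was -1.10 (SE 0.14, adjusted p = 0.00157, limma; p = 0.00303, two-sided exact permutation test). These are low levels, from 22 to 326 reads per wound on a gene of 9556 bases, and no diabetic wound reached the 0.5 FPKM of the filter. The size of the fold change followed the added constant, from -0.72 with 1 FPKM added to -2.06 with 0.1 FPKM and -2.69 when reads recovered from the FPKM entered voom of limma, and the gene was called each time.

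The other alpha chains were not called. LAMA4 ranged from 27.3 to 48.4 FPKM in diabetic wounds and from 32.1 to 50.5 FPKM in non-diabetic wounds, and its difference (log2 fold change -0.30, SE 0.17, adjusted p = 0.384) was within the spread. LAMA2 had 2.76 to 6.01 and 4.02 to 5.40 FPKM (log2 fold change -0.04, SE 0.17). LAMA3 had 0.573 to 4.76 and 0.862 to 3.63 FPKM (log2 fold change 0.13, SE 0.44, 95% interval -0.83 to 1.09), so the interval reached past 1 log2 unit upward. The ratio of LAMA5 to LAMA4 ran from 0.277 to 0.683 in diabetic wounds and from 0.183 to 0.348 in non-diabetic wounds, with an overlap.

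The 250 bases before the annotated starts of the LAMA5 and LAMA1 genes are shown because these were the alpha chains whose groups did not overlap, in opposite directions. Both are read 5′ to 3′ on the gene's own strand, from the NCBI genome of Sscrofa11.1, and end at the base before the start. Capitals mark GC boxes, searched as GGGCGG on both strands, the only one of 4 motifs found in either window. The other motifs searched were the CCAAT box by that name, the TATA box by its letters TATAAA, and the AP-1 motif, spelled TGANTCA. All were searched on both strands.
LAMA5, chr17:61747796-61748045, minus strand: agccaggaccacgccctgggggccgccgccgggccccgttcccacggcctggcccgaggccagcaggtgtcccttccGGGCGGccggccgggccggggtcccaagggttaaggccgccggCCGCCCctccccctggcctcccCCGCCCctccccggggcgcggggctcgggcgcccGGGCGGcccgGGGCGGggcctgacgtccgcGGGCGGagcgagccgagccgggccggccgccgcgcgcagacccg
LAMA1, chr6:100332593-100332842, plus strand: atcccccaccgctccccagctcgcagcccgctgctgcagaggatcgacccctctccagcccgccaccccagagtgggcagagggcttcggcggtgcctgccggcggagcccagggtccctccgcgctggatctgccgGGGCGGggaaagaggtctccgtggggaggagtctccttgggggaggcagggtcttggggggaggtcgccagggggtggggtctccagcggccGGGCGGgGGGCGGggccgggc
The LAMA5 window held 6 GC boxes at a GC content of 85.6%, and the LAMA1 window 3 at 76.0%. Of the windows of the same length before 19556 protein-coding genes, 45.9% held at least 1, and their median GC content was 57.6%. A match of letters is a description and not a binding site.

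**Figure D2:**
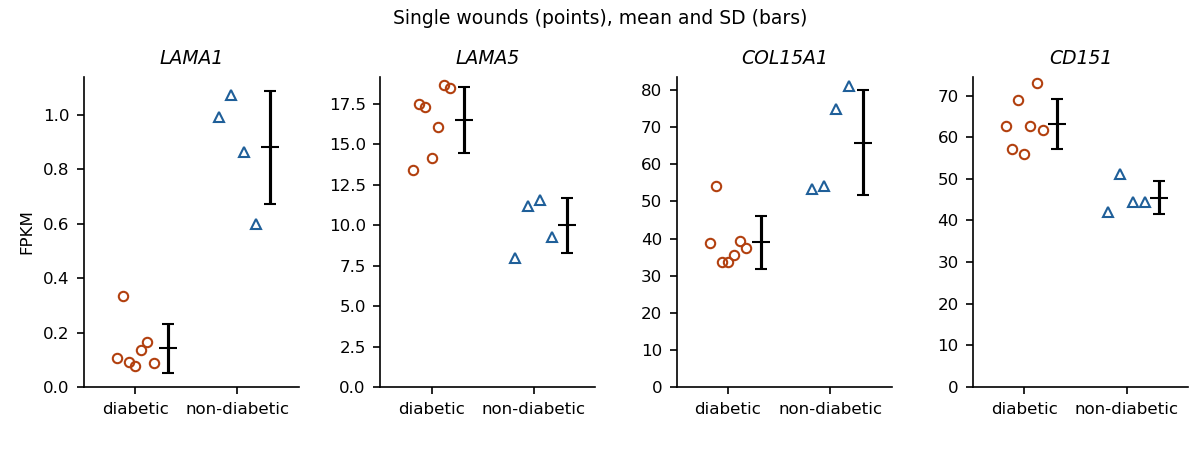
FPKM of LAMA1, LAMA5, COL15A1 and CD151 in each wound (circles diabetic, n = 7; triangles non-diabetic, n = 4), with the mean and SD of each group as bars on axes that start at 0. LAMA1 separates downward in diabetic wounds and LAMA5 and CD151 upward, whereas the highest diabetic COL15A1 value, 54.1 FPKM, reaches into the non-diabetic range.

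None of the beta and gamma chains was called. LAMB1, the beta chain of most mesenchymal and vascular laminins, had 41.2 to 55.4 FPKM in diabetic wounds (median 47.3) and 51.3 to 66.6 FPKM in non-diabetic wounds. The log2 fold change of LAMB1, -0.34 (SE 0.10, 95% interval -0.55 to -0.13), did not reach the fold change threshold of 0.5. Its adjusted p also missed the threshold (adjusted p = 0.0817, limma; p = 0.00606, two-sided exact permutation test, unadjusted). LAMB2, the beta chain of mature vessel and neuromuscular laminins, had 30.5 to 61.3 and 37.7 to 55.7 FPKM (log2 fold change 0.04, SE 0.21). LAMC1, the gamma chain common to most laminins, made up 94.4 to 99.1% of the summed FPKM of LAMC1 and LAMC3 in every wound. It had 33.0 to 48.5 and 35.9 to 52.6 FPKM (log2 fold change -0.20, SE 0.14). LAMB1 stood to LAMC1 in a narrow ratio, 1.00 to 1.33 in diabetic and 1.26 to 1.43 in non-diabetic wounds.

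LAMC3, a minor gamma chain, had 0.813, 0.418, 0.575, 0.900, 0.697, 1.19 and 1.54 FPKM in diabetic replicates 1 to 7. It had 2.53, 2.14, 2.01 and 0.932 FPKM in non-diabetic replicates 1 to 4. The first 3 of these stood above every diabetic wound and the fourth among them, and the log2 fold change of -0.80 (SE 0.25, adjusted p = 0.104) was not called. Without non-diabetic replicate 4 it was -1.03 and called (adjusted p = 0.0498). LAMB3, the beta chain of laminin-332, had the largest positive value of the 25 genes, 0.96, with an SE of 0.77 and a 95% interval from -0.73 to 2.65 (adjusted p = 0.564). Its levels, 0.789 to 28.0 FPKM in diabetic and 1.46 to 11.9 FPKM in non-diabetic wounds, followed the epidermis, as described below.

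**Figure D3:**
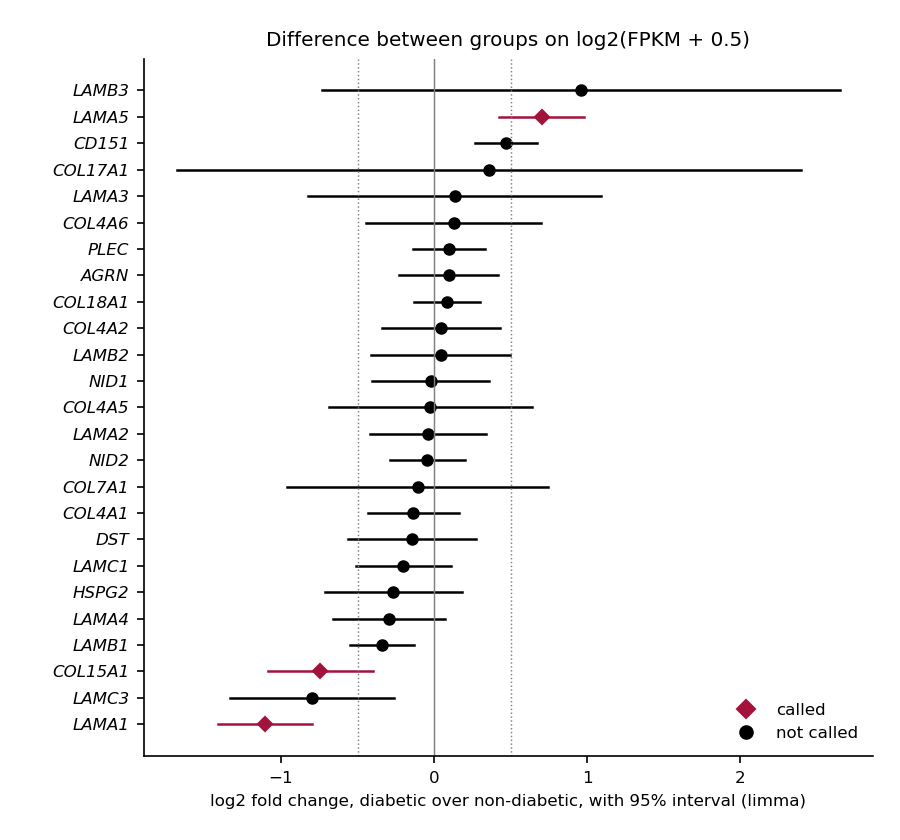
Log2 fold change of the 25 tested genes, diabetic over non-diabetic, with 95% intervals from limma. Diamonds are called genes, and dotted lines mark the fold change threshold of 0.5 in each direction. LAMA5 at 0.70 and COL15A1 and LAMA1 at -0.74 and -1.10 are the called genes, and the widest intervals belong to COL17A1 and LAMB3.

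COL4A1 and COL4A2 encode the chains of the type IV collagen found in nearly all basement membranes. They were the most abundant members by far, and together made up more than 97% of the summed FPKM of the 6 type IV collagen genes in each of the 11 wounds. COL4A1 had 212, 272, 295, 356, 306, 364 and 322 FPKM in diabetic replicates 1 to 7 and 345, 317, 321 and 335 FPKM in non-diabetic replicates 1 to 4. Its groups overlapped (log2 fold change -0.14, SE 0.14, 95% interval -0.43 to 0.16). COL4A2 had 172, 215, 259, 338, 286, 331 and 299.99 FPKM against 294, 258, 237 and 242 FPKM, with a log2 fold change of 0.05 (SE 0.18, 95% interval -0.34 to 0.43). In the diabetic wounds the 2 wounds lowest in the first were also lowest in the second, and the ratio of COL4A1 to COL4A2 stayed between 1.05 and 1.27 in diabetic and between 1.17 and 1.39 in non-diabetic wounds.

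The COL4A1 and COL4A2 genes lie head to head on chromosome 11, COL4A1 on the minus strand (76858332 to 76997409) and COL4A2 on the plus strand (76996885 to 77161617). The start of COL4A1 and 1 of the 2 annotated starts of COL4A2 are 133 bases apart. The stretch between them is shown because these 2 starts lie so close. The narrow ratio was not particular to this pair. Over the 11 wounds the SD of the log2 ratio was 0.138 for COL4A1 to COL4A2 and 0.137 for LAMB1 to LAMC1. Whether the stretch has a part in the ratio was not tested. The stretch is printed on the plus strand, in the reading direction of COL4A2, from the same genome, with GC boxes and a CCAAT match in capitals.
COL4A1 and COL4A2, chr11:76997410-76997542, plus strand: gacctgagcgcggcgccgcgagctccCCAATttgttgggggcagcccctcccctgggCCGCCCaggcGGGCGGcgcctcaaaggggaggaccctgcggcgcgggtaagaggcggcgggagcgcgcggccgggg
This stretch held 2 GC boxes and 1 CCAAT box, and its GC content was 78.9%. Of 133-base windows before 19557 protein-coding genes, 39.1% held a GC box and 21.5% a CCAAT, with a median GC content of 60.9%. By the other COL4A2 model, which starts farther upstream, the 2 genes overlap by 525 bases, and the setting for strand in the authors' counting is not given in the sources used here.

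The remaining type IV chains were low. COL4A5 and COL4A6, which form a trimer in the epidermal junction, lie 207.898 kb apart on the X chromosome. COL4A5 had 2.11 to 7.42 FPKM in diabetic and 1.92 to 5.69 FPKM in the non-diabetic group (log2 fold change -0.02, SE 0.30), and COL4A6 had 1.23 to 3.40 and 1.21 to 3.57 FPKM (log2 fold change 0.13, SE 0.26). The ratio of COL4A5 to COL4A6 ran from 0.958 to 2.2 in diabetic and from 1.59 to 1.73 in non-diabetic wounds. COL4A3 and COL4A4, the chains of the kidney glomerulus and lung, stood at 0 to 0.0595 and 0.0026 to 0.0838 FPKM. These were at most 20 and 27 reads, so that a difference between groups was not detectable at this depth (p = 0.185 and 0.164, two-sided exact permutation tests, unadjusted).

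COL15A1 encodes collagen XV, which lies at the outer face of vessel, muscle and nerve basement membranes. It had 38.9, 54.1, 33.6, 33.6, 35.7, 39.4 and 37.5 FPKM in diabetic replicates 1 to 7 and 53.3, 54.2, 74.8 and 81.2 FPKM in non-diabetic replicates 1 to 4. Diabetic replicate 2 stood above non-diabetic replicate 1 and just under replicate 2, and the other 6 diabetic wounds lay below all 4. The means were 39.0 ± 7.08 and 65.9 ± 14.2 FPKM (SD), a log2 fold change of -0.74 (SE 0.16, adjusted p = 0.0250, limma; p = 0.00606, two-sided exact permutation test). The difference in mean log2 level was -0.37 within the L libraries and -1.08 within the R libraries. The call depended on the wounds included and was lost without the 2 epidermis-poor wounds (-0.80, adjusted p = 0.0501) and without any 1 of diabetic replicates 3, 5 and 7 or non-diabetic replicates 3 and 4 (-0.63 to -0.74, adjusted p = 0.0512 to 0.0904).

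COL18A1, the related collagen XVIII gene from which endostatin is cut, was not called. It had 65.1 to 86.3 FPKM in diabetic and 66.0 to 71.4 FPKM in the non-diabetic group (log2 fold change 0.08, SE 0.10, 95% interval -0.13 to 0.30). The ratio of COL15A1 to COL18A1 was 0.597, 0.774, 0.516, 0.488, 0.536, 0.457 and 0.437 in diabetic replicates 1 to 7 and 0.795, 0.803, 1.05 and 1.23 in non-diabetic replicates 1 to 4, and here the groups did not overlap. Markers of vessel cells are given beside these values. None of the 12 endothelial markers was called, and their summed FPKM was 297 to 372 in diabetic and 285 to 355 in non-diabetic wounds. Of the 10 mural cell markers 1 was called, RGS5, a pericyte gene, which was lower in diabetic wounds (38.6 ± 9.81 against 70.5 ± 14.3 FPKM, log2 fold change -0.87, SE 0.20, adjusted p = 0.0350, limma). The other 9 were not called, 5 with positive and 4 with negative log2 fold changes, and the median of the list was 0.10. The summed FPKM of all 10 was 423 to 785 and 432 to 686. Of the 6 adipocyte markers LEP, the leptin gene, was called lower (log2 fold change -1.41, adjusted p = 0.0126, limma). The median log2 fold change of the 6 was -0.99, and FABP4 alone had a positive value (0.92, adjusted p = 0.0607, limma). FABP4 was the most abundant of the 6 in every wound, and their summed FPKM was 278 to 852 and 283 to 483. With the mean log2 level of the endothelial markers as a covariate COL15A1 was still called (-0.74, adjusted p = 0.0349, limma), as with that of the keratinocyte markers (-0.78, adjusted p = 0.0132). The endothelial level was alike in both groups (4.14 to 4.47 in diabetic and 4.14 to 4.41 in non-diabetic wounds). That covariate could thus move the difference little. The part of endothelial cells, mural cells and adipocytes in the result was not tested. In bulk tissue fewer cells of a type and less RNA per cell cannot be told apart.

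The linkers and proteoglycans of the sheet were not called. NID1 had 42.1 to 76.9 FPKM in diabetic wounds (median 61.2) and 54.5 to 69.7 FPKM in non-diabetic wounds, and NID2 21.5 to 34.6 and 26.1 to 30.2 FPKM. Both nidogens, which connect laminin to type IV collagen, had log2 fold changes near 0 (-0.02, SE 0.17, and -0.04, SE 0.11). The 95% interval for NID2 was -0.29 to 0.20. HSPG2, the gene of perlecan, had 46.2 to 96.4 and 82.9 to 106 FPKM (log2 fold change -0.27, SE 0.21). Diabetic replicates 1 and 2 were its lowest wounds, as they were for COL4A1, COL4A2, LAMB2 and NID1. This was not particular to the members, since the same wounds were lowest in SPARC, TGFBI, MMP2 and MMP14, described further on. AGRN, the gene of agrin, had 13.6 to 25.1 and 14.3 to 19.3 FPKM (log2 fold change 0.09, SE 0.15).

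Of the anchorage genes, CD151 had the clearest difference. In the wounds poor in epidermis, diabetic replicate 4 and non-diabetic replicate 1, it was not lowered. It stood there at 89.0 and 94.3% of the other wounds of its group. Which cells carry the difference between the groups was not tested. CD151 encodes a tetraspanin that accompanies laminin-binding integrins, and it is also made by endothelial and other cells. It had 62.7, 57.2, 69.0, 55.8, 62.8, 73.0 and 61.7 FPKM in diabetic replicates 1 to 7 and 41.9, 51.1, 44.4 and 44.4 FPKM in non-diabetic replicates 1 to 4. The groups did not overlap. The log2 fold change was 0.47 (SE 0.09, 95% interval 0.27 to 0.67, adjusted p = 0.0184, limma; p = 0.00303, two-sided exact permutation test), under the fold change threshold of 0.5, so the gene was not called. It was 0.44 within the L and 0.50 within the R libraries. Without non-diabetic replicate 2 it was 0.53 and called (adjusted p = 0.0269), and without the epidermis-poor wounds it was 0.46 (adjusted p = 0.0619).

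The other anchorage genes did not pass the test. COL17A1, the transmembrane collagen of the hemidesmosome, had 100.2, 96.9, 61.7, 2.68, 67.1, 73.6 and 64.8 FPKM in diabetic replicates 1 to 7 and 8.17, 75.2, 81.0 and 37.8 FPKM in non-diabetic replicates 1 to 4. Its lowest wound in each group was the one poor in epidermis, and the log2 fold change was 0.36 with an SE of 0.93. COL7A1, the anchoring fibril collagen, had 23.0 to 102 and 29.8 to 83.9 FPKM (log2 fold change -0.11, SE 0.39). DST, which encodes BP230 and longer cytoskeletal linkers, had 3.24 to 6.41 and 4.19 to 6.42 FPKM (log2 fold change -0.15, SE 0.19). PLEC, the plectin gene, had 29.9 to 40.0 and 27.8 to 36.4 FPKM (log2 fold change 0.10, SE 0.11). The annotation gives DST 32 transcripts with 14 starts and PLEC 30 with 13, so values per length over the whole gene do not show which form was present.

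FRAS1, FREM1 and FREM2 encode a complex that holds the epidermis to the dermis before birth, and all 3 were low. FRAS1 had 0.0725 to 0.195 and 0.0458 to 0.129 FPKM and FREM1 0.0219 to 0.122 and 0.0364 to 0.0981 FPKM. FREM2 had 0.142 to 0.333 FPKM in diabetic wounds (median 0.223) and 0.215, 0.469, 0.947 and 0.324 FPKM in non-diabetic replicates 1 to 4. The FREM2 groups overlapped (p = 0.0303, two-sided exact permutation test, unadjusted), on 71 to 493 reads per wound. For FRAS1 and FREM1 the unadjusted p was 0.858 and 0.939 (two-sided exact permutation tests).

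The wounds poor in epidermis, diabetic replicate 4 and non-diabetic replicate 1, separate the members by layer. KRT5, the keratin of basal keratinocytes, stood at 29.2 and 211 FPKM in these wounds and at 817 to 2861 FPKM in the other 9. PECAM1 and CDH5, which mark endothelium, stood at 100.4 and 47.0 FPKM in diabetic replicate 4 and at 91.9 and 40.5 FPKM in non-diabetic replicate 1, within or above the range of the others. Because the wounds were picked from measured values, the following is a description with no test. For each gene the level in the epidermis-poor wound was divided by the median of the other wounds of its group. Of the 25 members 5 were under 0.5 in both (20%, against 6.53% of all genes tested), 15 were at least 0.8 in both (60%, against 68.0%), and 5 lay between. Of the 5 genes under the filter, FREM1 was under 0.5 in both.

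The 5 genes low in both wounds were COL17A1, LAMB3, LAMA3, COL7A1 and COL4A6. COL17A1 stood at 3.81% of the other diabetic wounds in diabetic replicate 4 and at 10.9% of the other non-diabetic wounds in non-diabetic replicate 1. LAMB3 stood at 5.10 and 14.3%, and LAMA3, its partner in laminin-332, at 25.7 and 36.5%. COL7A1 and COL4A6 were lowered less, to 44.5 and 39.9% and to 44.3 and 45.8%. KRT5 itself stood at ratios of 0.0179 and 0.146, so COL17A1 and LAMB3 came near the keratinocyte markers and the other 3 did not.

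**Figure D4:**
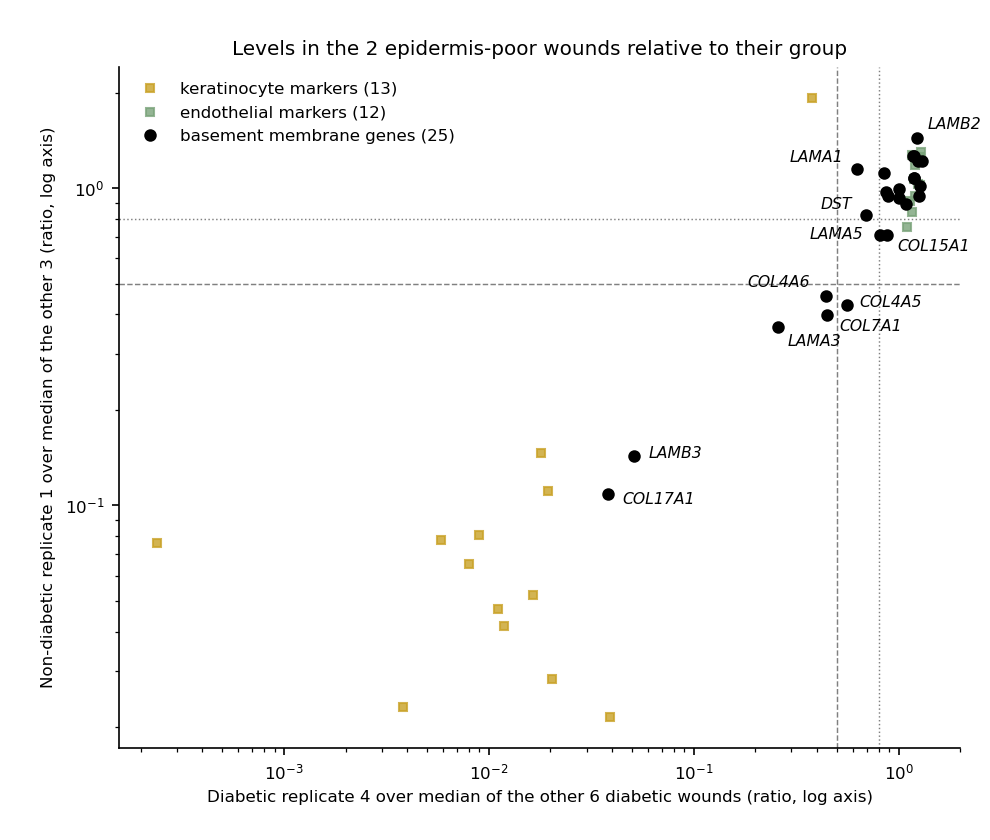
Level in each epidermis-poor wound relative to the median of the other wounds of its group, diabetic replicate 4 on the horizontal and non-diabetic replicate 1 on the vertical log axis, for 25 basement membrane genes (circles), 13 keratinocyte and 12 endothelial markers (squares). Dashed and dotted lines mark ratios of 0.5 and 0.8. COL17A1 and LAMB3 lie toward the keratinocyte markers, and LAMA3, COL7A1 and COL4A6 lie higher, under 0.5 on both axes. The 15 members that were not lowered lie with the endothelial markers near 1. The keratinocyte marker at the top is KRT15.

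The 250 bases before the start of COL17A1 (chromosome 14 from 114959404 to 115007734, minus strand) are shown because of the tested members it was the lowest, relative to its group, in both wounds poor in epidermis. Capitals mark a TGANTCA match (AP-1) and an ATTGG, which is a CCAAT on the other strand.
COL17A1, chr14:115007735-115007984, minus strand: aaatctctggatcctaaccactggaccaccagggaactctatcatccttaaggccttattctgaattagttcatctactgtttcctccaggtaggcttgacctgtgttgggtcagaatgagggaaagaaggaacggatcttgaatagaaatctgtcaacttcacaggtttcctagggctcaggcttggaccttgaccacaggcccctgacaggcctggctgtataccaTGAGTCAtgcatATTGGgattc
The AP-1 match starts 22 bases before the annotated start and the ATTGG 10 bases before it. Of the 19556 windows of this length, 5.27% held the AP-1 letters and 31.9% a CCAAT on either strand. The window of the same length before LAMB3, the other member near the keratinocyte markers, was searched too and held no match to any of the motifs.

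**Figure D5:**
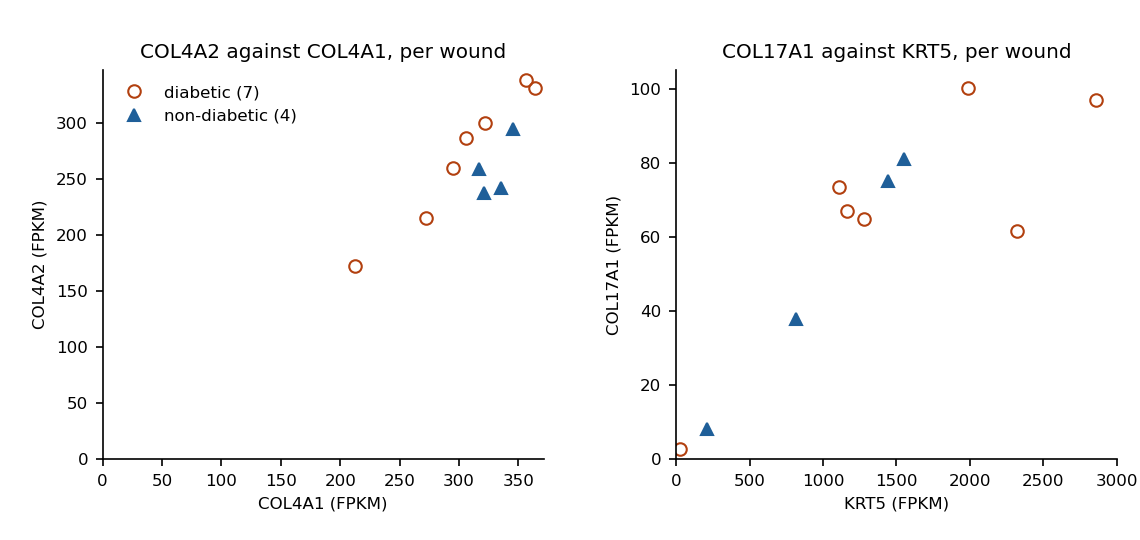
Left, COL4A2 against COL4A1, and right, COL17A1 against KRT5, in FPKM with 1 point per wound (circles diabetic, n = 7; triangles non-diabetic, n = 4). The ratio of COL4A1 to COL4A2 is 1.05 to 1.39 over the 11 wounds, with the non-diabetic points close together, and the 2 points nearest 0 on the right are the wounds poor in epidermis, at 2.68 and 8.17 FPKM of COL17A1.

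The 15 members that were not lowered were LAMA2, LAMA4, LAMB1, LAMB2, LAMC1, LAMC3, COL4A1, COL4A2, COL18A1, NID1, NID2, HSPG2, AGRN, PLEC and CD151. Their share was near that of all genes, and with 0.67 and 1 in place of 0.5 and 0.8 their number was 8. Among them NID1 had the highest ratio in diabetic replicate 4 (1.30), and LAMB2 in non-diabetic replicate 1 (1.44). By the same rule 11 of 12 endothelial, 10 of 10 mural and 8 of 8 fibroblast markers were not lowered. The ratios thus do not tell members of vessels from those of other cells below the epidermis. Between lay COL4A5 at 0.558 and 0.428, DST at 0.696 and 0.823, LAMA5 at 0.815 and 0.712, COL15A1 at 0.880 and 0.713, and LAMA1, which was lower in diabetic replicate 4 (0.624) and not in non-diabetic replicate 1 (1.15). With the keratinocyte level as a covariate, the epidermal genes were still not called. The log2 fold change of COL17A1 was then -0.07 with an SE of 0.18, and that of LAMB3 0.61 with an SE of 0.26 (adjusted p = 0.204, limma). With both epidermis-poor wounds left out, LAMB3 had 0.95 with an SE of 0.32 (adjusted p = 0.188).

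The 2 sets of libraries named with L and with R, a letter that the labels do not explain, gave some members opposite differences. In LAMB2, HSPG2 and DST the groups did not overlap within either set and the directions were opposite (12% of the 25, against 8.53% of all genes tested), with 3 diabetic and 2 non-diabetic libraries in the L set and 4 and 2 in the R set. The difference in mean log2 level was -0.52 and 0.52 for LAMB2, -0.79 and 0.16 for HSPG2, and 0.39 and -0.59 for DST, in the L and R libraries. Whether the sets differed was not tested.

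Other genes of the pathway were tested in the same fit. Of 11 receptor genes tested none was called (median log2 fold change -0.02). ITGB1, the beta chain of most laminin and collagen receptors, had 74.5 to 99.8 FPKM in diabetic and 91.5 to 130 FPKM in the non-diabetic group (log2 fold change -0.38, adjusted p = 0.107), and SDC1, a syndecan, 34.9 to 94.6 and 52.6 to 90.1 FPKM. Of 20 tested genes of assembly, linking and further components none was called (median -0.00), with SPARC, which binds collagen, at 5222 to 19274 and 8728 to 19624 FPKM and TGFBI at 374 to 1301 and 871 to 1460 FPKM. Of 11 tested enzymes that act on matrix none was called (median -0.16, MMP10 having no row). Most of these are proteases, and HPSE, SULF1 and SULF2 are not. MMP2 stood at 881 to 3958 and 1593 to 4090 FPKM and MMP14 at 229 to 581 and 449 to 887 FPKM. ITGA3, ITGB4 and ITGA6, named after their values were seen, encode chains of the keratinocyte receptors for laminin-332. In the epidermis-poor wounds ITGA3 stood at ratios of 0.145 and 0.240, and ITGB4 at 0.297 and 0.387. ITGA6 stood at 0.445 and 0.588, so by the rule above it lay between and was not under 0.5 in both.

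The markers of cell types gave the makeup of the wounds. Of 13 keratinocyte markers 12 had positive log2 fold changes and 1, KRT15, was called higher (2.50, adjusted p = 0.0388, limma). KRT15 stood at ratios of 0.377 and 1.92 in the epidermis-poor wounds, so it did not follow the epidermis by the rule above. The uncalled markers had SEs from 0.87 (TP63) to 1.95 (KRT1), so their signs say little about the amount of epidermis. KRT14, KRT16 and KRT17 had no row of that symbol. The summed level of the list was 55.3 to 7349 FPKM in diabetic and 335 to 3771 FPKM in non-diabetic wounds. The skeletal muscle gene ACTA1 stood at 957 FPKM in diabetic replicate 3 and at no more than 0.0272 FPKM in the others. LAMA2, the muscle laminin chain, had 5.56 FPKM in that wound, within the range of its group. None of the 8 fibroblast, 5 nerve and 6 leukocyte markers tested was called, nor the 1 muscle marker tested.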

How the data were processed

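Polyadenylated RNA of 11 wounds, 7 diabetic and 4 non-diabetic, was sequenced from strand-marked libraries. Per the labels, the authors used fastp for trimming, HISAT2 2.2.1 for mapping to Sscrofa11.1 and featureCounts 2.0.6 for counting. StringTie 2.2.3 is named in their notes too. The deposited values are FPKM per gene, made by the authors. Their annotation release and formula are not given in the sources used here. FPKM times gene length gave whole reads for 100% of values, within 0.05 reads, and 1 read on a gene of 2 kb was 0.0112 to 0.0194 FPKM. No libraries were identical.

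Since the values are not counts, limma (lmFit, eBayes with trend, no covariate) on log2(FPKM + 0.5) took the place of the authors' count test with DESeq2, with their thresholds. It was tested on simulated data. For single genes a two-sided permutation test enumerated all 330 splits of the wounds. The members and gene lists were chosen with earlier results of these data known. All members are named. In the totals of the lists, 1 gene is counted whose values are not reported here. The rule also named KRT5, PECAM1, CDH5, and the called and 2 most abundant genes of the other lists. ITGA3, ITGB4, ITGA6 and ACTA1 were added after their values were seen. The most abundant genes of the marker lists were not described singly, beyond KRT5 and PECAM1. Alternatives changed the pseudocount, filter, scaling, weights, covariates, replicate block and wounds included. Leaving out 3 wounds together was added after the data were seen. Genome windows were cut from the NCBI genome (Annotation Release 106) and searched on both strands.

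The tools were limma 3.58.1 in R 4.3.3, and pandas 2.3.3, matplotlib 3.10.9, SciPy 1.17.1, numpy 2.4.6 and pysam 0.24.0 in Python 3.11.15.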

Additional observations from a re-analysis of the deposited data

Results flagged for a closer look

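In 4 of the 50 groups of values checked, 1 wound stood far from the others of its group, by Dixon's criterion on log2(FPKM + 0.5) of the 25 tested genes. Chance flags about 1 in 20 groups. COL17A1 stood at 2.68 FPKM in diabetic replicate 4, where the next lowest diabetic wound had 61.7 FPKM, and LAMB3 at 0.789 FPKM in the same wound, where the next lowest had 11.4 FPKM. The keratinocyte markers were also lowest there, with a mean log2 level of 1.21 against 6.20 to 7.57 in the other diabetic wounds. LAMA1 stood at 0.335 FPKM in diabetic replicate 2, where the next highest diabetic wound had 0.167 FPKM. COL15A1 stood at 54.1 FPKM in the same wound, where the next highest had 39.4 FPKM. Without diabetic replicate 2 the log2 fold change was -1.17 for LAMA1 and -0.82 for COL15A1, and both were called (limma).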

How the results depend on the processing

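LAMA5 was called in 24 of 26 alternatives and COL15A1 in 18 of 26. LAMA1 was called in 24 of 25, but it passed the filter through its non-diabetic wounds alone, so its count says little. No log2 fold change of these 3 genes changed sign. The count of members called higher (1) went to 0 when the 3 wounds holding muscle or little epidermis were left out, and ran from 1 to 2 when single wounds were left out, the second gene being CD151 without non-diabetic replicate 2. The count called lower (2) was 1 with the stricter filter of 1 FPKM, under which LAMA1 was not tested, 1 without the epidermis-poor wounds, 1 without those 3 wounds, and 1 to 2 when single wounds were left out. Over all genes the 188 called higher and 231 called lower became 406 and 416 with library weights, 112 and 100 without the epidermis-poor wounds, and 70 and 68 without the 3 wounds, and ran from 110 to 236 and from 99 to 246 when single wounds were left out. The replicate numbers of the labels do not pair the samples (correlations of deviations -0.27, 0.22, 0.07 and -0.48 for numbers 1 to 4). With a replicate block 0 members were called higher and 0 lower, and 11 and 5 of all genes, and the adjusted p of LAMA1, LAMA5 and COL15A1 was 0.145, 0.204 and 0.543. With ratios of 0.67 and 1 in place of 0.5 and 0.8, 6 members followed the epidermis, 11 lay between and 8 were not lowered. With means as the reference the numbers were 5, 5 and 15. Except where the number of genes tested or wounds included was changed, the cause was not tested. With 1 animal per group the p-values set the difference between the animals against the spread of wounds within each. Genes under 0.5 FPKM are limited by depth.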
